A study of Mus musculus with 12 samples.

Results

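Upk1a and Upk3bl, 2 of the 6 uroplakin genes on the array, were described in the mouse oviduct with and without estrogen receptor alpha (ESR1). In the oviducts of ESR1KO mice Upk1a was lower than in WT mice and Upk3bl was higher, both with and without PMSG. Uroplakins are membrane proteins that cover the inner surface of the bladder and ureter with rigid plaques, where they act as a permeability barrier. UPK1A and UPK1B belong to the tetraspanins, small proteins that cross the membrane several times, and each pairs with another uroplakin: UPK1A with UPK2, and UPK1B with UPK3A or UPK3B. UPK1A needs its partner to leave the endoplasmic reticulum. UPK1A is also the bladder receptor for the FimH adhesin of uropathogenic E. coli. Upk3bl is named for its resemblance to Upk3b, and its role is less well known.

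Both genes were chosen by name, with their differences between ESR1KO and WT already known from these arrays. Those differences are therefore given here as a description without a test, and the response to PMSG was tested. Of 18194 genes named by a single symbol on the array, 1822 could be located in all 12 arrays, Upk1a and Upk3bl among them, each with 1 probe set.

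The whole oviduct was collected from 4 groups of C57BL/6 females, with 3 arrays per group. ESR1KO mice lacked both copies of ESR1 (ESR1-/-, with or without ZP3Cre). Their WT siblings kept 1 floxed copy and had lost the other (ESR1flox/-, with or without ZP3Cre), so that the controls were themselves heterozygous for the deletion. Cre was driven in the oocyte by the Zp3 promoter, and the deletion was passed on through the germ line. PMSG-treated ESR1KO and PMSG-treated WT mice received 5 IU of pregnant mare serum gonadotropin, which makes ovarian follicles grow and secrete estradiol, at 23 days of age and were killed 48 h later. Untreated ESR1KO and WT mice were killed at 23 days, so the effects of PMSG and of the extra days of age cannot be told apart. An array held the oviductal RNA of a pool of 3 or 4 mice. In bulk tissue, fewer cells of a type and less RNA per cell cannot be told apart.

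Signals were log2 expression values of 45101 probe sets, normalized by the authors, and array medians lay between 5.63 and 5.75. A signal under 4 is called near background, where the size of a difference rests largely on the background correction. Only the 3 untreated ESR1KO columns of the table followed the probe set names (correlation with the other 9 columns between -0.146 and -0.123). The rows of the other 9 were therefore found from printed fold changes. For Upk1a, 1 row of 45101 met the fold with PMSG, and the same row was the only one that met the fold without PMSG. For Upk3bl, 1 row met the fold without PMSG, and it was also the row picked out by the printed folds with PMSG and of PMSG-treated WT against WT. Esr1, the targeted gene, had signals of 10.11, 10.62 and 10.56 in PMSG-treated ESR1KO and 10.42, 12.13 and 11.05 in ESR1KO, against 12.62, 12.82 and 12.21 in PMSG-treated WT and 12.94, 12.92 and 13.05 in WT. ESR1KO replicate 2 thus had more Esr1 signal than the other ESR1KO arrays and less than any WT array. Where the Esr1 probe set lies relative to the deleted part of the gene is not known here, so the signal left in ESR1KO is no check of the deletion.

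In the mouse genome (GRCm38.p6) Upk1a lies on the minus strand of chromosome 7 at chr7:30603092-30612734, and Upk3bl on the plus strand of chromosome 5 at chr5:136057259-136076695. Upk3bl stands next to Upk3b (chr5:136038496-136044993), with 12265 bases and no annotated gene between them, and a long noncoding RNA, Gm40347 (chr5:136072494-136074804), lies within its bounds. ESR1 is a transcription factor that binds estrogen response elements, formed of a pair of inverted half-sites, so the 250 bases before the RefSeq start of each gene are shown, at chr7:30612735-30612984 for Upk1a and chr5:136057017-136057266 for Upk3bl, 5′ to 3′ on the strand of the gene, with half-sites (GGTCA, either strand) in capitals. The start used for Upk3bl lies a few bases inside the bounds of the gene given above, so that the window reaches into them.
Upk1a: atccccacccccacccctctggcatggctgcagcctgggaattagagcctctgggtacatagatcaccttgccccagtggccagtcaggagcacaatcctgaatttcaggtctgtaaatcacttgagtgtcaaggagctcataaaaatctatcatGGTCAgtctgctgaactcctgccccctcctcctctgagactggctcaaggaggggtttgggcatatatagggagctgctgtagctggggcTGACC
Upk3bl: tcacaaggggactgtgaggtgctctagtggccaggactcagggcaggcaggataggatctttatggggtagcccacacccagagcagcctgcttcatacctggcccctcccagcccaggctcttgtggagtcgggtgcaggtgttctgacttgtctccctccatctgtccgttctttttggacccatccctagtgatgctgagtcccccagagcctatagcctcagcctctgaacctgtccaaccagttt
The window of Upk1a held 2 half-sites, from 95 to 91 and from 5 to 1 bases before the start, and that of Upk3bl held 0. Of 32851 RefSeq mouse promoter windows of this length, 35.2% held at least 1 half-site and 8.16% at least 2. A full element (GGTCA, then NNN, then TGACC, which contains a half-site on each strand) was in 0.0639% of windows, an AP-1 motif (TGANTCA) in 6.75% and an Sp1 motif (GGGCGG) in 32.7%, each searched on both strands, and none of these 3 was in either window. These are matches of letters, with no measurement of binding.

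The signal of Upk1a was 3.47, 3.55 and 3.57 in PMSG-treated ESR1KO and 3.44, 6.09 and 4.69 in ESR1KO. In PMSG-treated WT it was 10.42, 9.84 and 9.13, and in WT 8.26, 9.55 and 7.48. All 3 PMSG-treated ESR1KO arrays and ESR1KO replicate 1 were near background, and no array of either ESR1KO group reached the lowest array of either WT group. The group means were 3.53 ± 0.05 in PMSG-treated ESR1KO and 4.74 ± 1.32 in ESR1KO, against 9.80 ± 0.64 in PMSG-treated WT and 8.43 ± 1.05 in WT (SD, n = 3), so that PMSG-treated ESR1KO was the lowest group and PMSG-treated WT the highest. PMSG-treated ESR1KO and ESR1KO overlapped, as did PMSG-treated WT and WT, whereas the highest ESR1KO array (6.09) lay below the lowest WT array (7.48).

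For Upk3bl the order of the genotypes was turned round. Its signal was 7.19, 6.07 and 5.93 in PMSG-treated ESR1KO and 6.59, 5.88 and 7.95 in ESR1KO, against 2.02, 1.91 and 3.00 in PMSG-treated WT and 3.20, 2.74 and 2.74 in WT. All 6 WT arrays, treated or not, were near background, and all 6 ESR1KO arrays lay above it. The means were 6.40 ± 0.70 in PMSG-treated ESR1KO and 6.80 ± 1.05 in ESR1KO, against 2.31 ± 0.60 in PMSG-treated WT and 2.89 ± 0.27 in WT (SD, n = 3), so that ESR1KO was the highest group and PMSG-treated WT the lowest. The 2 ESR1KO groups overlapped, and so did the 2 WT groups.

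**Figure D1:**
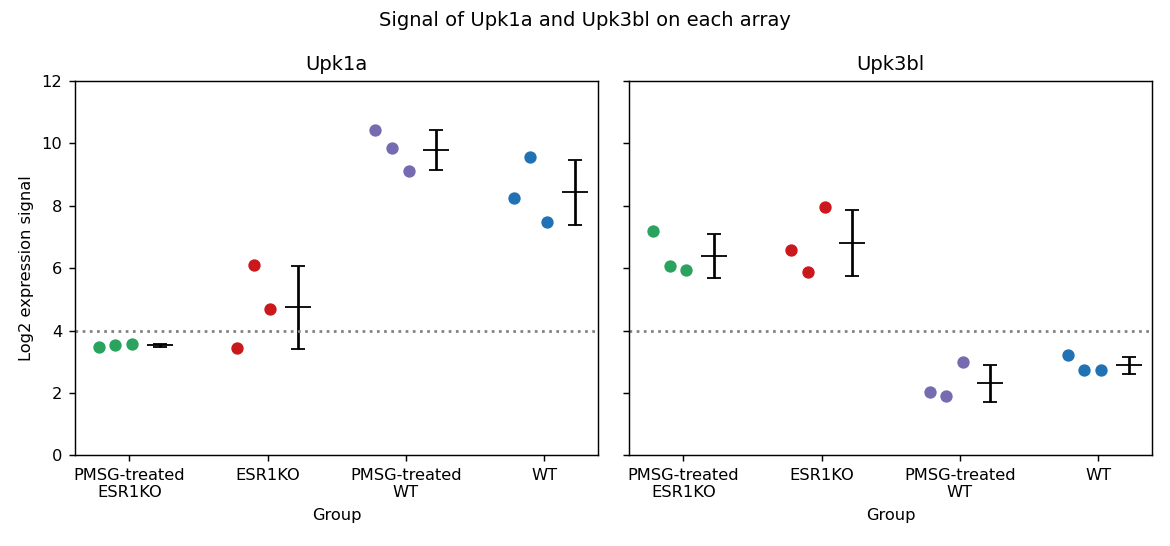
Log2 expression signal (vertical axis) of Upk1a (left) and Upk3bl (right) in the 4 groups (horizontal axis); each point is 1 array, in the order of replicates 1, 2 and 3, the black bar gives the mean ± SD (n = 3) and a dotted line marks the signal of 4 under which values are near background. Upk1a lies between 3.44 and 6.09 in both ESR1KO groups and between 7.48 and 10.42 in both WT groups, and Upk3bl between 5.88 and 7.95 in both ESR1KO groups and between 1.91 and 3.20 in both WT groups.

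The arrays within a group did not keep 1 order for both genes. Among untreated ESR1KO arrays, replicate 2 held the highest signal of Upk1a (6.09) and the lowest of Upk3bl (5.88), and it also held the highest signal of Esr1 (12.13). Replicate 3 held the highest signal of Upk3bl (7.95). In PMSG-treated WT, replicate 3 had the lowest signal of Upk1a (9.13) and of Esr1 (12.21) and the highest of Upk3bl (3.00). Untreated WT went the other way for Upk1a, since replicate 3 had the lowest Upk1a (7.48) but the highest Esr1 (13.05). With group means removed, the correlation of Upk1a with Upk3bl over the 12 arrays was -0.356, against -0.921 with the group means kept. The arrays fall into separate groups, so that the second value describes the genotypes.

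The differences between genotypes, which chose these genes, were as follows. For Upk1a the log2 difference between PMSG-treated ESR1KO and PMSG-treated WT was -6.27, and that between ESR1KO and WT was -3.69. With PMSG it was set against 3 ESR1KO arrays near background, so that its size rests largely on the background correction. The difference with PMSG minus that without was -2.58, made up of a higher mean in PMSG-treated WT than in WT and a lower mean in PMSG-treated ESR1KO than in ESR1KO, and was not tested because both genotype differences had chosen the gene. Upk3bl was higher by 4.09 on the log2 scale in ESR1KO than in WT when both had received PMSG and by 3.91 when neither had. No fold is given for either, because both WT groups were near background. For Upk3bl the difference with PMSG minus that without was 0.18. Leaving out each array in turn gave log2 differences from -6.60 to -5.96 with PMSG and from -4.36 to -3.04 without PMSG for Upk1a, and from 3.69 to 4.43 with PMSG and from 3.34 to 4.37 without for Upk3bl. A probe set is said to be called where its adjusted p was under 0.05 and its signals differed by 2-fold or more. Between the genotypes with PMSG, 4.48% of all probe sets were called. Without PMSG it was 17.5% of the 1822 located probe sets, all of which the study had listed as changed.

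The genes were not chosen for their response to PMSG, but its test uses the arrays that chose them and is not independent of that choice, and the printed fold of Upk3bl for PMSG in WT had served to find its row. Neither gene passed the test in either genotype. In PMSG-treated WT versus WT, Upk1a was 2.58-fold higher, a log2 difference of 1.37 (SE 0.497, 95% interval 0.24 to 2.5, adjusted p = 0.406, limma), and 2 of 3 PMSG-treated WT arrays lay above every WT array. Its difference ranked 548th from the top of 45101 rows, of which 0.251% were called. With single arrays left out, the log2 difference lay between 0.89 and 1.93, and over all alternatives run the adjusted p lay between 0.228 and 0.806. Upk3bl differed by -0.58 there (SE 0.389, 95% interval -1.47 to 0.30, adjusted p = 0.789, limma), with both groups near background.

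In PMSG-treated ESR1KO versus ESR1KO, the log2 difference of Upk1a was -1.21 (SE 0.646, 95% interval -2.63 to 0.21, limma), and that of Upk3bl was -0.41 (SE 0.51, 95% interval -1.53 to 0.72, limma). The adjusted p, an upper bound in this comparison, was 1 for both. Upk1a in ESR1KO spread over 3.44 to 6.09, so that its difference was -0.54 without replicate 2 of that group, and that of Upk3bl turned to 0.16 without ESR1KO replicate 3. Of the 1822 located probe sets, 0.11% were called in this comparison. These intervals do not show that PMSG left either gene unchanged in ESR1KO.

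**Figure D2:**
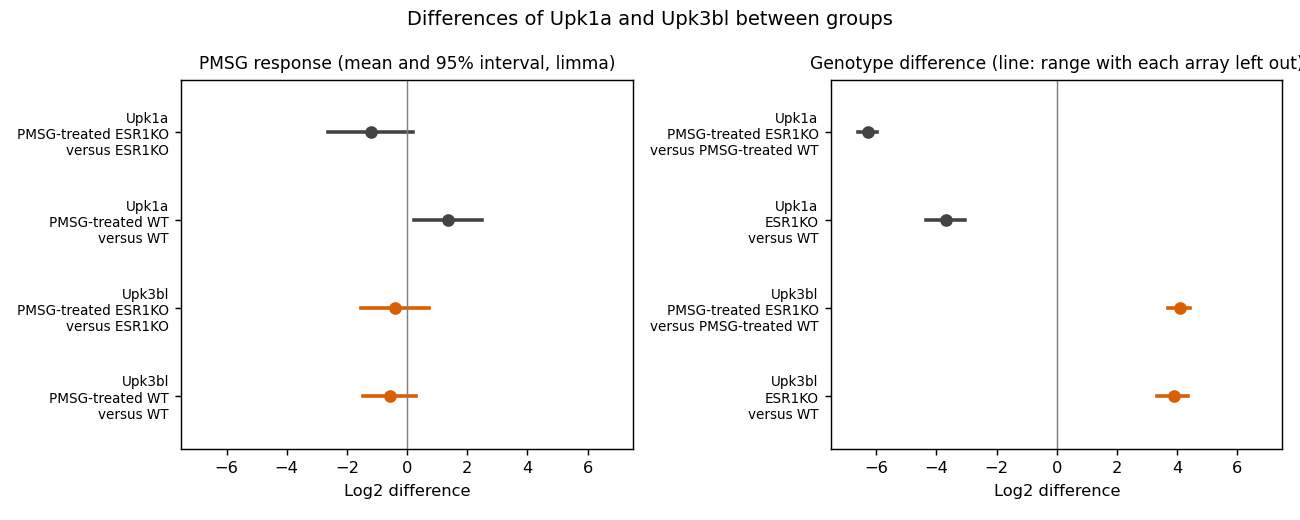
Log2 differences (horizontal axes) of Upk1a (grey) and Upk3bl (orange); on the left the response to PMSG in ESR1KO and in WT with its 95% interval from limma, on the right the difference between genotypes with and without PMSG, where the line spans the values with each array left out in turn. The interval of the PMSG response includes 0 except for Upk1a in WT (0.24 to 2.5, adjusted p = 0.406), and the genotype differences are -6.27 and -3.69 for Upk1a and 4.09 and 3.91 for Upk3bl.

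The other 4 uroplakin genes could be read by name in the untreated ESR1KO arrays alone, since their rows in the other 9 columns were not located. Upk2, whose product is the partner of UPK1A in the bladder, was near background there at 1.89, 1.76 and 1.76. Upk3a, a partner of UPK1B, was near background as well at 2.04, 1.99 and 2.03. Upk1b, the other tetraspanin of the family, had signals of 6.85, 7.83 and 8.56 on the brightest of its 4 probe sets, and the means of the other 3 were 6.49, 6.45 and 5.20. Upk3b, the neighbour of Upk3bl, had signals of 11.27, 11.45 and 12.10 on 1 probe set and 10.35, 10.55 and 11.33 on the other. In ESR1KO oviducts, 4 of the 6 family members therefore had a mean of at least 4, and Upk2 and Upk3a did not. Upk1a was itself low on these arrays (3.44, 6.09 and 4.69). Whether Upk2 was present in WT oviducts, where Upk1a was higher, could not be read. Signals of different probe sets are not on 1 scale and were not compared in size.

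Urothelium was looked for as another tissue that the dissection could hold. In the untreated ESR1KO arrays its 4 markers were all near background, with means of 1.80 for Upk2, 2.02 for Upk3a, 3.54 for Krt20 (a keratin of the umbrella cells) and 2.53 for Krt5 (a basal keratin). The 4 mesothelial markers, of the serosal lining of the oviduct, had means between 9.85 and 11.90, and Upk3b is 1 of them, beside Msln, Wt1 and Lrrn4. The oviduct markers were high. Ovgp1, the oviductal glycoprotein of secretory cells, had a mean of 15.94 ± 0.04 (SD, n = 3), Pax8, a transcription factor of secretory cells, of 11.07 ± 0.50, and Foxj1, the regulator of motile cilia, of 11.69 ± 0.16. Of 4 ovarian markers 3 were near background, and Inha had a mean of 8.04. Of 2 markers of uterine glands, Prss29 was near background and Foxa2 had a mean of 9.23. Of a wider list of 20 genes of urothelial differentiation and vesicle transport, however, 12 had a mean of at least 4 and 8 were near background. Array medians (5.63 to 5.75) lay above 4, so most signals on an array pass this limit. Neither this count nor that of the uroplakin family was set against all genes. Among the 12 were the keratins Krt7 (11.39) and Krt19 (13.58) and the transcription factor Klf5 (11.35), which other epithelia also express, and among the 8 were the transcription factors Gata3 (2.90), Foxa1 (2.22) and Pparg (2.65). These lists could not be read by name in the other 3 groups, and their part in the differences between genotypes was not tested.

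**Figure D3:**
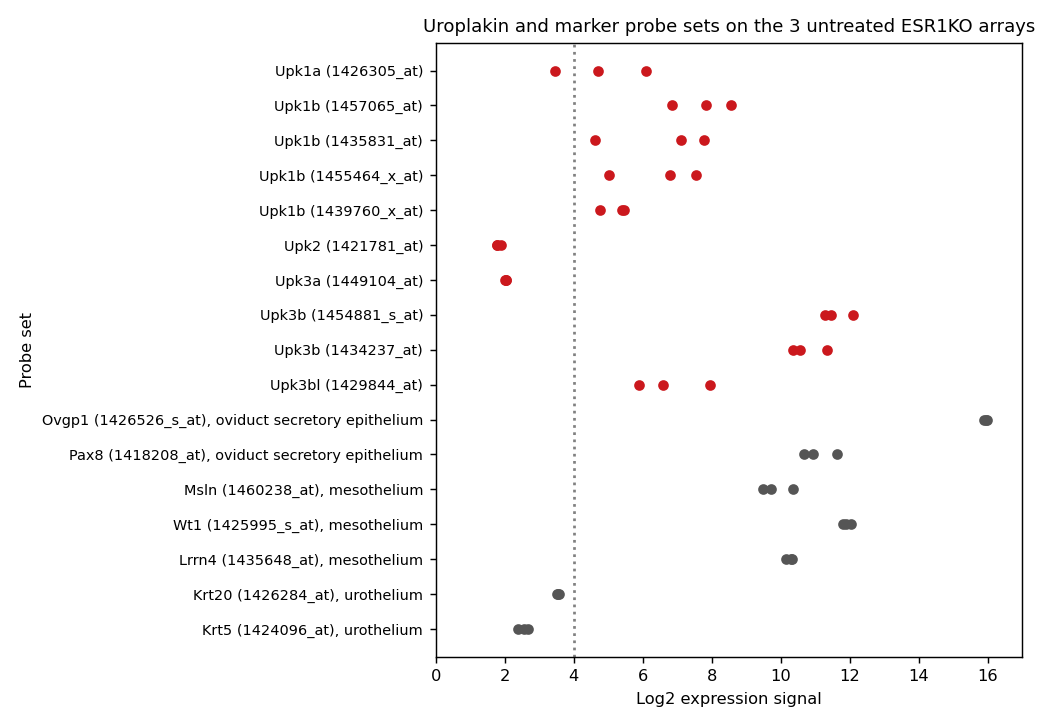
Log2 expression signal (horizontal axis) of all uroplakin probe sets (red) and of markers of secretory epithelium, mesothelium and urothelium (grey) on the 3 untreated ESR1KO arrays, 1 point per array; signals left of the dotted line, at 4, are near background. Upk2, Upk3a, Krt20 and Krt5 lie left of the line on every array, and Upk3b lies between 10.35 and 12.10.

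Of the 20 genes of urothelial differentiation and vesicle transport, 3 were located in all 12 arrays and the rest were not. The 3 could be located because the study had listed them as changed, so calls among them were favoured and say nothing of the list as a whole. Between PMSG-treated ESR1KO and PMSG-treated WT, 1 of the 3 was called higher, 1 lower and 1 was not called, with a median log2 difference of 0.59, against 0.01 over all probe sets, of which 2.76% were called higher and 1.72% lower, shares that are not a matched background for genes listed as changed. The gene called lower was Pparg, a nuclear receptor that promotes urothelial and fat cell differentiation. Its signal was 2.90, 2.72 and 2.51 in PMSG-treated ESR1KO and 2.75, 2.61 and 2.58 in ESR1KO, against 6.03, 4.61 and 8.48 in PMSG-treated WT and 2.86, 3.73 and 2.84 in WT. Pparg was thus above background in PMSG-treated WT alone, and its highest array there, replicate 3, was the one with the lowest Upk1a. Its log2 difference was -3.67 (SE 0.798, adjusted p = 0.0273, limma) with PMSG, and -2.61 without PMSG-treated WT replicate 3. The call of Pparg was lost with the unmoderated model (adjusted p = 0.109), with only the 6 arrays compared (0.0834), in the replicate block fit (0.0575), and when any PMSG-treated ESR1KO array or PMSG-treated WT replicate 1 was left out (0.0605 to 0.107).

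The gene called higher was Mal, a membrane protein of apical transport that helps uroplakin vesicles fuse in the bladder. Its signal was 9.81, 9.73 and 10 in PMSG-treated ESR1KO, against 8.80, 9.01 and 7.72 in PMSG-treated WT, so that the groups did not overlap. The log2 difference was 1.33 (SE 0.296, adjusted p = 0.0294, limma). Without PMSG-treated WT replicate 3 the difference was 0.94, under 2-fold. The call was also lost with the unmoderated model (0.0995), the 6 arrays (0.0966) and the replicate block (0.0527). Leaving out any single array of PMSG-treated ESR1KO (0.0682 to 0.123) or of untreated WT (0.0514 to 0.0541) lost it too. The call stayed without PMSG-treated WT replicate 1 (adjusted p = 0.0445, limma) or replicate 2 (adjusted p = 0.0206, limma). Rab27b, a small GTPase that brings vesicles to the membrane, was not called between PMSG-treated ESR1KO and PMSG-treated WT (0.59, adjusted p = 0.32). Between ESR1KO and WT none of the 3 was called by limma, with a median of 0.97 against 0.15 over the located probe sets. Rab27b was higher there by 1.27 (SE 0.263, adjusted p = 0.0586, limma), and this adjusted p is an upper bound. Its signal was 6.1, 5.92 and 6.33 in ESR1KO and 4.65, 4.75 and 5.14 in WT, without overlap. The difference was 0.97 for Mal and -0.5 for Pparg. An unadjusted p under 0.05 was found for 2 of the 3, and for 1291 of the 1822 located probe sets. With PMSG in WT none was called and 1, Pparg, had an unadjusted p under 0.05 (log2 difference 3.23, adjusted p = 0.187). Of all 45101 probe sets, no matched background, 4174 had such a p there. In ESR1KO none was called with PMSG, and 0 of 3 had an unadjusted p under 0.05, against 321 of the 1822 located probe sets.

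Of 30 tetraspanin genes, to whose family Upk1a belongs, Cd82 and Cd151 were located in all 12 arrays. They could be located because the study had listed them as changed. Low p-values were therefore favoured and say nothing of the family as a whole. Both are widely expressed membrane organizers that bind integrins or growth factor receptors. Cd82 averaged 11.86 ± 0.18 in the PMSG-treated ESR1KO arrays and 11.06 ± 0.34 in those of PMSG-treated WT (SD, n = 3), higher by 0.80 on the log2 scale (adjusted p = 0.0257, limma). Cd151 averaged 11.92 ± 0.12 in the PMSG-treated ESR1KO arrays and 12.44 ± 0.09 in those of PMSG-treated WT, a change of -0.52 (adjusted p = 0.0169, limma). Both differences were under 2-fold and so were not called, and neither gene was called in the other 3 comparisons. For PMSG in WT, 1 of the 2 had an unadjusted p under 0.05, against 4174 of all 45101 probe sets, which is no matched background. For PMSG in ESR1KO it was 0 of 2, against 321 of the 1822 located probe sets. Between ESR1KO and WT it was 0 of 2, against 1291 of the 1822.

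The genes with a pattern most like that of each uroplakin were sought among the 1822 located genes by Pearson correlation of the log2 signal over the 12 arrays. The candidates were all genes that the study had listed as changed, so a gene outside that list could not appear. Most of them precede Slc27a2 in the alphabet by the symbols of its list (Tmem248 stood there under an older RIKEN name). Since the arrays fall into separate groups, the correlations describe shared group levels and carry no test. For Upk1a the 5 genes were Serpinb11, a member of a serine protease inhibitor family (r = 0.985), Enah, a regulator of actin (0.981), Tmem248 (0.981), Pip5k1b, a phosphoinositide kinase (0.980), and Lrat, which stores retinol as esters (0.979). Serpinb11 averaged 6.23 ± 0.23 in PMSG-treated ESR1KO and 7.10 ± 1.36 in ESR1KO, against 11.33 ± 0.44 in PMSG-treated WT and 10.37 ± 0.30 in WT (SD, n = 3). Like Upk1a, Serpinb11, Enah, Pip5k1b and Lrat had their highest untreated ESR1KO signal in replicate 2. With group means removed, the correlations of the 5 genes with Upk1a lay between 0.724 and 0.845. The same arrays had picked the 5 genes, so high values were favoured. Ranked by this measure, 0 of the 5 stayed among the closest 5.

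For Upk3bl the 5 genes were Ptprk, a receptor tyrosine phosphatase (r = 0.964), Glce, an enzyme of heparan sulfate synthesis (0.964), Pdgfc, a platelet-derived growth factor (0.963), the unnamed transcript AA986860 (0.963) and Fam102b (0.961). AA986860 averaged 7.79 ± 0.19 in PMSG-treated ESR1KO and 7.84 ± 0.59 in ESR1KO, against 4.14 ± 0.43 in PMSG-treated WT and 4.30 ± 0.12 in WT (SD, n = 3). All 5 had their highest untreated ESR1KO signal in replicate 3, where Upk3bl was highest too. With group means removed their correlations with Upk3bl lay between 0.423 and 0.657, which their choice on the same arrays also favoured. Ranked by this measure, 0 of the 5 stayed among the closest 5. By Spearman correlation 1 of the 5 genes of Upk1a and 0 of the 5 of Upk3bl stayed among the closest 5.

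**Figure D4:**
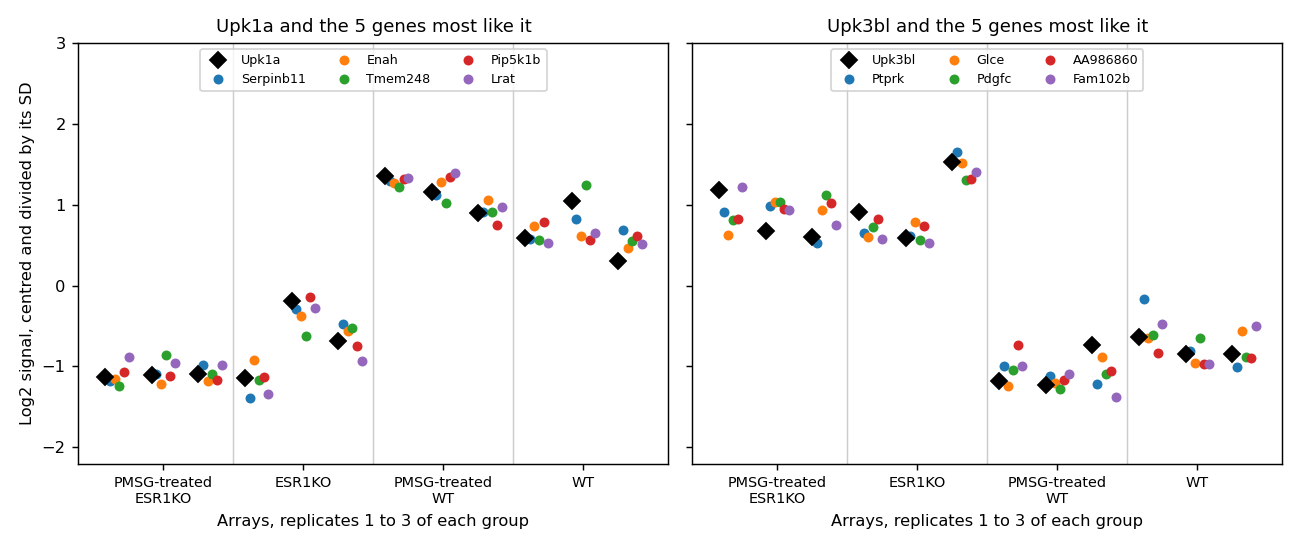
Log2 signal of Upk1a (left) and Upk3bl (right), black diamonds, and of the 5 genes most like each (colours), centred and divided by its SD over the 12 arrays (vertical axis), with the arrays of the 4 groups on the horizontal axis. Upk1a and its 5 genes are low in both ESR1KO groups, with ESR1KO replicate 2, or 3 for Tmem248, nearest to WT, and Upk3bl and its 5 genes are high in both ESR1KO groups, most of all in ESR1KO replicate 3.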

How the data were processed

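RNA of 12 oviduct pools, 3 per group, was measured on Affymetrix Mouse Genome arrays. The authors deposited log2 signals. They had corrected the background by GC-RMA, normalized by quantiles and summarized probes by median polish, using Partek software (version 6.6). The platform annotation gave 1 gene symbol to 34958 probe sets, several to 932 and none to 9211. The 9 columns other than untreated ESR1KO share a row order of their own, and their rows were located through printed fold changes (within 0.0002 on the log2 scale for the supplementary table), which served as row keys only. The row of untreated ESR1KO was the probe set of that symbol at the implied level. Located genes thus carry the printed fold by construction.

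The contrasts of PMSG-treated WT with WT and with PMSG-treated ESR1KO were fitted over all 45101 rows of 9 arrays with limma 3.58.1 in R 4.3.3 (eBayes with a variance trend, Benjamini-Hochberg). Comparisons with untreated ESR1KO were fitted on the 1822 located probe sets. They borrowed the prior variance (2.87 degrees of freedom) from the 9 arrays and were adjusted over 45101 tests, so their adjusted p is an upper bound. The single fit over 12 arrays that was planned was not possible for the whole table. The matching of rows in the 9 columns was tested on simulated rows, and the motif search on planted motifs. The alternatives tried were an unmoderated model, no variance trend, a filter on mean signals under 4 and repeated quantile normalization. Others were the replicate number as a block, a fit to only the 6 arrays concerned, and leaving out single arrays. For comparisons among the 9 arrays the unmoderated model left out untreated ESR1KO. There it was not the full model of genotype and PMSG that the methods describe.

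The genes and lists were chosen with earlier results of these data known. Named genes were both members, Esr1, the uroplakin family, the located members of the other lists, markers, and 5 genes per member by correlation. In the untreated ESR1KO arrays, a marker with several probe sets was taken from the one with the highest mean. A located gene was taken from the 1 probe set that fitted the printed folds. The results of Mal (2 probe sets) and Rab27b (4) in all groups thus rest on 1 of them. The methods state different mice per replicate, and 3 arrays per group limit the precision. Promoter sequences are from RefSeq (GRCm38.p6).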

Additional observations from a re-analysis of the deposited data

How the results depend on the processing

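The PMSG responses of Upk1a and Upk3bl were not called under any alternative that gave a value, and their log2 differences kept their direction except that of Upk3bl in PMSG-treated ESR1KO versus ESR1KO, which was 0.16 without ESR1KO replicate 3 (range with single arrays left out -0.87 to 0.16). Upk3bl had no value in the 2 comparisons of the 9 arrays with a mean signal of at least 4, because it lay under that limit. Neither gene has another probe set, and no row order was found for the whole table, so those alternatives were not run; the fold without PMSG led to the same row of Upk1a as the fold with PMSG. Between PMSG-treated WT and WT, 113 probe sets were called; the number was 19 in the unmoderated model, 179 when probe sets under a mean of 4 were dropped, 46 with the replicate block and 36 with only the 6 arrays, and 41 to 346 with single arrays left out. In PMSG-treated ESR1KO versus ESR1KO (2) it was 0 without the variance trend, in the unmoderated model, above a mean of 4 and with the 6 arrays, and 0 to 6 with single arrays left out. In ESR1KO versus WT (318) it was 106 in the unmoderated model, 112 with the 6 arrays and 78 to 450 with single arrays left out, and between the genotypes with PMSG (2022) it was 1255, 1313 and 1248 to 2422. The highest of these counts in 3 of the comparisons, 346, 450 and 2422, all came without PMSG-treated WT replicate 3. The cause was not tested. The replicate numbers were not taken as pairs, because not every correlation of same-numbered arrays was over 0.1 (5 of 9, from -0.124 to 0.356; untreated ESR1KO was not included). The block changed no call of Upk1a or Upk3bl and ended those of Mal and Pparg. The correlation with group means removed and the alternatives for Mal and Pparg were added after the data were seen, and 0 of the 5 most alike genes of either uroplakin stayed among the closest 5 by it. Signals near background limit both genes, Upk1a in PMSG-treated ESR1KO and Upk3bl in both WT groups.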
